A study of Mus musculus with 18 samples.

Results

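Growth hormone reaches the liver from the pituitary and binds the receptor encoded by Ghr, which activates the kinase JAK2 and, through it, the transcription factors STAT5A and STAT5B. STAT5 switches on Igf1, the main circulating growth factor made by the liver, together with Igfals, the subunit that holds IGF1 in a stable complex in blood, and it also switches on Socs2 and Cish, whose proteins damp the signal. In mouse liver the pattern of growth hormone pulses differs between the sexes, and the repressors BCL6 and CUX2 act with STAT5 in setting male-biased and female-biased gene expression, while the homeobox factor encoded by Onecut1 binds liver promoters that include growth hormone targets. These 10 genes were followed here. They were matched to their RefSeq transcripts, and the transcript with the highest mean over all libraries stood for each gene. All 10 were found among 24040 genes, and all 10 passed the filter of at least 1 RPKM in at least 3 libraries, which 10358 genes passed. Cux2 passed it through the 3 libraries of a single group.

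RPKM values, in which reads are divided by transcript length and by the reads of the library, were available for polyA RNA from whole liver of wild-type C57BL/6J mice. There were 6 groups of 3 libraries. LF and HF had the diet alone. CR was added to either diet in LF+CR and in HF+CR, and Ex in LF+Ex and in HF+Ex. Only the abbreviations are in the labels. LF and HF are taken here to mean a low-fat and a high-fat diet, CR to mean caloric restriction and Ex to mean exercise, as is usual in such studies. Treatment started at 5 weeks of age and liver was collected at 62 weeks, and all groups were wild type. Sex is not among the labels, and whether a library was made from 1 animal is not said, so p-values measure the spread between these libraries. In whole tissue, fewer cells of a type and less RNA per cell cannot be told apart.

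The promoters bear on these genes because STAT proteins bind the letters TTCNNNGAA, which read the same on both strands. RefSeq promoter windows on GRCm38.p6, from 250 bases before to 50 after a start, were searched. The motif was in 2726 of 32851 windows (8.298%) and in at least 1 window of 2582 of 27025 genes (9.554%). Of the 10 genes, 9 had windows in the table, 16 in all, and Cish, Bcl6 and Igfals had the motif in 5 of their windows. Stretches with matches are shown for the window of Cish, that of Bcl6 with the most matches and that of Igfals with the match nearest a start. They are examples of places in the set where the letters of STAT binding occur. Another window of Bcl6 and another of Igfals, not shown, each held 1 match. Matches are in capitals, and each stretch runs 5′ to 3′ on the gene's strand.
Cish, chr9:107296654-107296683, plus strand: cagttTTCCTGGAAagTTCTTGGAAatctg
Bcl6, chr16:23981284-23981533, minus strand: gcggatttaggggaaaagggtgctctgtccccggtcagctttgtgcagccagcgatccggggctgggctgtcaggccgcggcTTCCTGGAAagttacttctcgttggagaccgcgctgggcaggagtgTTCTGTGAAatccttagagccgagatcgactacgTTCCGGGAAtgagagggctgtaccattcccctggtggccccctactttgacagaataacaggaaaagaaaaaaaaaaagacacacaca
Igfals, chr17:24877981-24878214, plus strand: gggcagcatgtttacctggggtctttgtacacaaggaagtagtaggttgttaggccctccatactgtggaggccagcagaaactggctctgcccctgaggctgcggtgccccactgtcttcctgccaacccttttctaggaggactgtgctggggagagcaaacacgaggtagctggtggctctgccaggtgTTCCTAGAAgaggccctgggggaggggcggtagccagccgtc
The Cish stretch holds 2 matches, the Bcl6 stretch 3 and the Igfals stretch 1. A match is a description of the letters and does not show binding. Cish, Bcl6 and Igfals behaved differently from each other across the libraries, as given with their values.

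RPKM totals per library ran from 512495 to 589042, and 9071 to 9999 genes per library had at least 1 RPKM. Counts were not used here. Steps among the lowest values gave an estimated depth of 22.0 to 41.2 M reads, and LF+CR 2 and LF+CR 3, at 41.2 and 32.3 M, were above the 3 LF libraries, at 22.0 to 30.6 M. Hepatocyte markers were high in every library, with a summed level of 17519 to 52312 RPKM over 11 genes, although Alb, which encodes albumin, is listed at 0 in 14 libraries and at 30395 to 33218 RPKM in HF 1 and the 3 HF+Ex libraries. Pancreatic acinar markers, 12 genes of digestive enzymes, summed to 1900 RPKM in LF+CR 1, 370 in HF+CR 1, 41.4 in LF+Ex 1 and 38.6 in HF+CR 2, and to between 5.01 and 12.7 in the other libraries. In HF+CR 2 nearly all of the sum was Cela1, at 38.4 RPKM, and the other acinar markers were at 0 apart from Cela2a at 0.213. Bile duct markers, 10 genes, summed to 156 RPKM in LF 2 and 176 in HF+CR 3 and to between 20.2 and 79.5 in the other libraries. Macrophage markers, 10 genes, summed to between 111 and 456 RPKM over the libraries, stellate cell markers to between 57.1 and 156, endothelial markers to between 94.2 and 131, and lymphocyte markers to between 1.01 and 8.26.

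**Figure D1:**
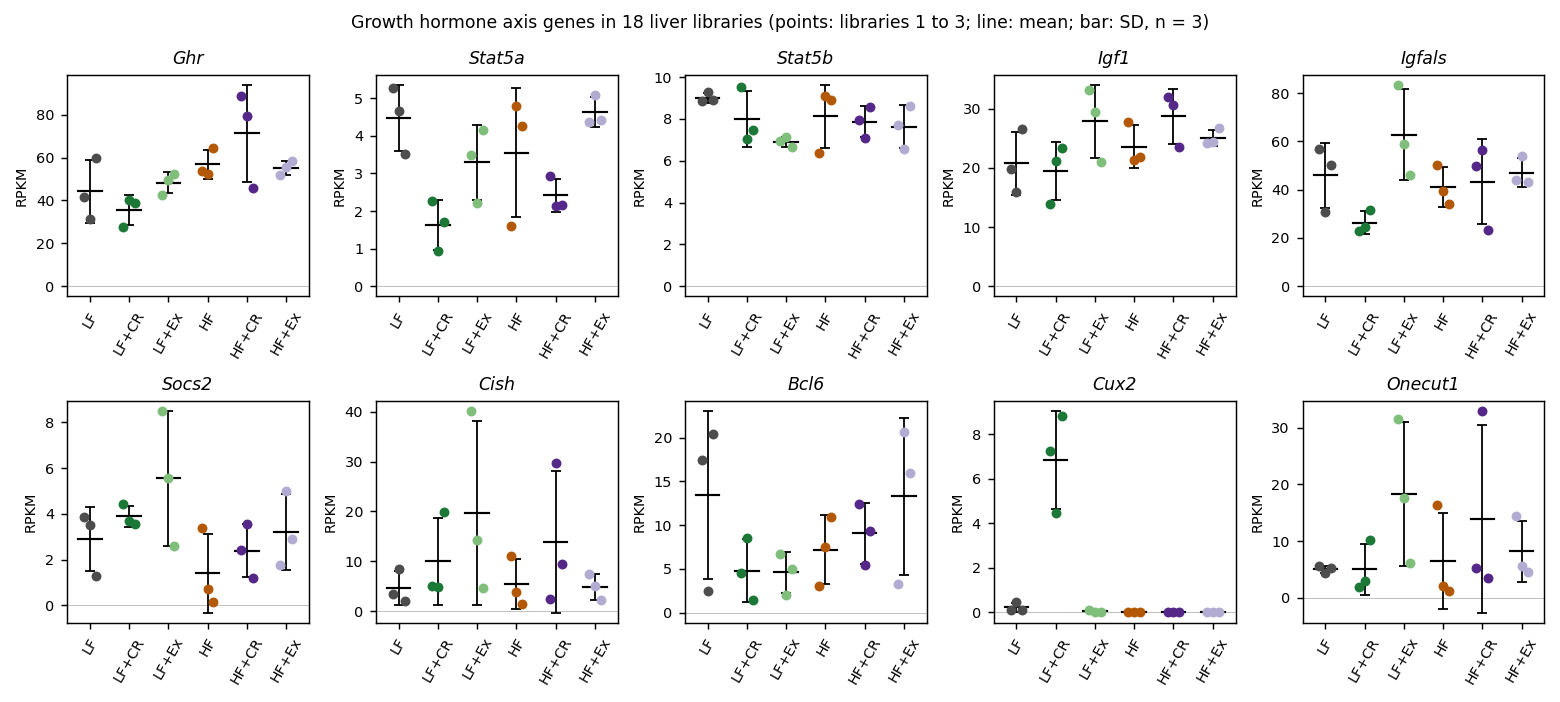
RPKM of each gene (vertical axes) in the 6 groups (horizontal axes), with a point per library, a line at the mean and a bar for the SD of 3 libraries. Cux2 was above 4 RPKM in the 3 LF+CR libraries and below 0.5 in the other libraries, whereas Cish, Bcl6 and Onecut1 varied widely within groups.

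Ghr, the receptor, was among the more abundant of the 10 genes, at 51.9 RPKM over all libraries. In LF it was 41.6, 31.1 and 59.99 RPKM, in LF+CR 27.6, 40.2 and 38.6, and in LF+Ex 42.7, 49.6 and 52.3. In HF it was 53.7, 52.3 and 64.5 RPKM, in HF+CR 88.9, 79.3 and 45.7, and in HF+Ex 51.9, 55.8 and 58.3. The highest group mean was that of HF+CR (71.3 ± 22.7, SD, n = 3) and the lowest that of LF+CR (35.5 ± 6.86, SD, n = 3), and each group overlapped with its neighbour in this order. All HF+CR libraries were above all LF+CR libraries. This difference was 0.95 ± 0.24 (SE) on the log2(RPKM + 1) scale and was called, at an adjusted p of 0.0208 with limma. It was not called without LF+CR 1 (difference 0.78, adjusted p = 0.104), HF+CR 1 (0.77, adjusted p = 0.109) or HF+CR 2 (0.85, adjusted p = 0.0792), nor without the 3 libraries with the most pancreatic transcripts (0.60, adjusted p = 0.334). The larger pancreatic marker sums within both CR groups were in LF+CR 1 and HF+CR 1, which had the lowest and the highest Ghr level of all libraries. Over the 18 libraries Ghr had r = −0.490 with the estimated depth, and the part of depth in these values was not tested.

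A second RefSeq transcript of Ghr was deposited as a row of its own, and it changes how the gene reads. The main row, NM_010284, held 80.8% of the summed level of the gene and the row NM_001048178 held 19.2%. The second row was 37.0, 11.4 and 26.4 RPKM in LF, 10.1, 7.46 and 8.66 in LF+CR and 15.3, 13.7 and 8.91 in LF+Ex. In HF it was 17.9 and 27.7 RPKM in libraries 1 and 2 and listed at 0 in library 3, and in HF+Ex it was 3.25, 22.2 and 11.3. In HF+CR it was listed at 0 in 2 libraries and at 0.0809 RPKM in the other one. With the rows summed, Ghr was 71.3 RPKM in HF+CR, 72.0 in HF and 69.2 in LF against 44.2 in LF+CR, and the difference of HF+CR from LF+CR became 0.63 with an adjusted p of 0.116, so it was not called. An exact 0 beside such values can be a failed estimate of the split between transcripts, and whether it was one was not tested.

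**Figure D2:**
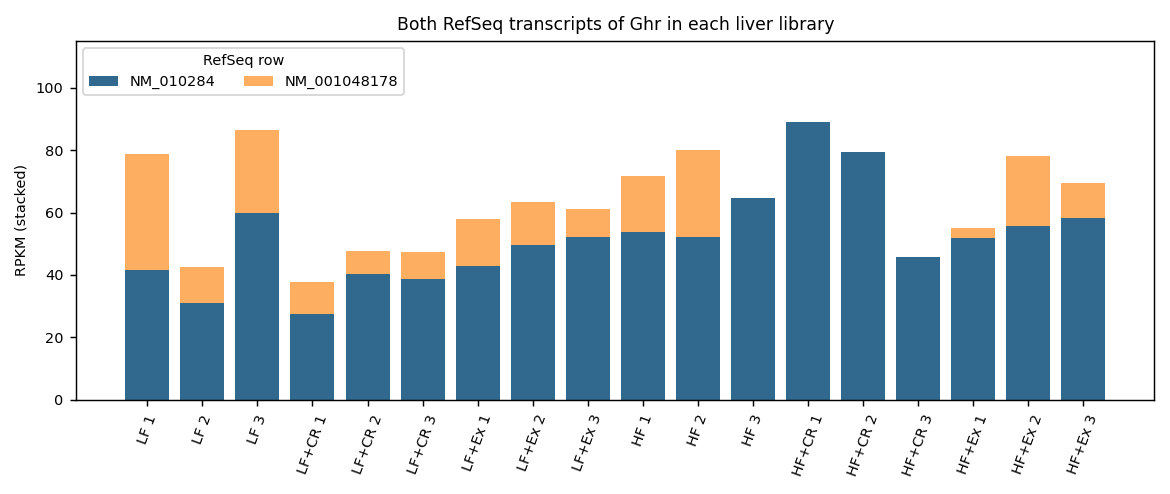
Stacked RPKM (vertical axis) of both Ghr RefSeq rows in each library (horizontal axis). The row NM_001048178 is at or near 0 in HF 3 and in the 3 HF+CR libraries and reaches 37.0 RPKM in LF 1.

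The STAT5 genes lie side by side on chromosome 11, Stat5b at chr11:100780731-100859004 and Stat5a at chr11:100859351-100885169. They are close paralogues, and how reads from shared sequence were assigned is not given in the sources used here. Stat5a was 5.26, 4.65 and 3.52 RPKM in LF, 2.27, 0.940 and 1.71 in LF+CR and 3.50, 2.21 and 4.17 in LF+Ex. It was 1.59, 4.81 and 4.27 RPKM in HF, 2.93, 2.14 and 2.17 in HF+CR and 4.37, 5.09 and 4.43 in HF+Ex. Every LF+CR library was below every LF library, and the groups were 1.64 ± 0.666 and 4.48 ± 0.885 RPKM (SD, n = 3). Stat5a fell by 1.07 ± 0.27 (SE) on the log2 scale in LF+CR against LF, with an adjusted p of 0.0301 in limma. The call was lost without LF 1 (adjusted p = 0.121), LF 2 (0.0657), LF+CR 2 (0.130) or LF+CR 3 (0.0553), and without the libraries with pancreatic transcripts (0.0632) or those high in bile duct markers (0.0641), while the direction was kept in all 28 alternatives that gave a value. The estimated depth was higher in LF+CR than in LF, as given above, and the part of depth in this difference was not tested. With both RefSeq rows of Stat5a summed, the difference was −0.83 with an adjusted p of 0.00467.

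Under the HF diet the CR difference of Stat5a was not called, and the interaction of CR with diet was not called either, so the fall was not shown to differ between diets. HF 1, at 1.59 RPKM, was the lowest library outside LF+CR, and in that library the second row of Stat5a was listed at 2.07 RPKM. With the rows summed, HF+CR against HF gave −0.55 with an adjusted p of 0.0918. In HF+Ex all 3 libraries were above all LF+Ex libraries, by 0.42 on the log2 scale, which was not called (adjusted p = 0.382).

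Stat5b was the steadiest of the 10 genes. It was 8.87, 9.30 and 8.89 RPKM in LF, 9.54, 7.03 and 7.45 in LF+CR and 6.95, 7.14 and 6.66 in LF+Ex. In HF it was 6.38, 9.11 and 8.89 RPKM, in HF+CR 7.94, 7.09 and 8.59, and in HF+Ex 7.70, 6.57 and 8.62. Its highest group mean was 1.304 times its lowest, and its SD within groups, 0.16 on the log2 scale, was below that of most genes (percentile 34.6 of the genes tested). All LF+Ex libraries were below all LF libraries, by 0.34 ± 0.13 (SE), with an unadjusted p of 0.0218 and an adjusted p of 0.519 in limma, which is not a call.

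Igf1 carries the growth signal of the pathway into the circulation. It was 19.8, 15.99 and 26.5 RPKM in LF, 13.9, 21.1 and 23.3 in LF+CR and 33.1, 29.4 and 21.0 in LF+Ex. It was 27.7, 21.3 and 21.8 RPKM in HF, 32.0, 30.5 and 23.4 in HF+CR and 24.2, 24.3 and 26.7 in HF+Ex. The groups spanned 19.4 ± 4.91 in LF+CR to 28.7 ± 4.59 in HF+CR (SD, n = 3), a ratio of 1.48. CR went with no called difference of Igf1 under either diet. In LF+CR against LF the difference was −0.09 with a 95% interval of −0.55 to 0.36 (adjusted p = 0.835), and its sign turned without LF 3 (0.09) or LF+CR 1 (0.12). Under HF it was 0.27 with an interval of −0.18 to 0.72 (adjusted p = 0.630). All HF+CR libraries were above all LF+CR libraries, by 0.56 ± 0.21 (SE), which had an unadjusted p of 0.0191 and an adjusted p of 0.110. Of the 4 RefSeq rows of Igf1, 2 were listed at 0 in all libraries, NM_001111275 held 79.6% of the level and NM_010512 held 20.4%.

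Igfals was 56.8, 30.9 and 50.1 RPKM in LF, 22.9, 24.6 and 31.7 in LF+CR and 83.5, 58.8 and 46.1 in LF+Ex. It was 50.4, 39.4 and 34.1 RPKM in HF, 50.01, 56.5 and 23.3 in HF+CR and 44.1, 54.1 and 43.1 in HF+Ex. LF+CR had the lowest mean, 26.4 ± 4.68 RPKM (SD, n = 3), and LF+Ex the highest, 62.8 ± 19.0. LF+CR and LF overlapped only through LF 2, one of the libraries high in bile duct markers. The difference of −0.75 ± 0.30 (SE) had an unadjusted p of 0.0258 and an adjusted p of 0.159 in limma. Without the bile duct libraries, LF 2 and HF+CR 3, it was −1.004 with an adjusted p of 0.0188. HF+CR against LF+CR (0.997, adjusted p = 0.0101) and the interaction (1.38, adjusted p = 0.0377) of Igfals were then called as well. LF 2 and HF+CR 3 had the lowest Igfals of their groups, so leaving them out had to enlarge these differences. Calls over all genes rose too, from 673 to 739, 1012 to 1385 and 106 to 270 in the same order. The part of the bile duct RNA in these values was not tested.

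Socs2 and Cish encode the inhibitors that STAT5 induces, and they varied far more than the genes above. Socs2 was 3.87, 3.50 and 1.29 RPKM in LF, 4.41, 3.69 and 3.55 in LF+CR and 8.49, 5.54 and 2.61 in LF+Ex. It was 3.38, 0.729 and 0.134 RPKM in HF, 2.41, 3.54 and 1.22 in HF+CR and 1.74, 5.00 and 2.90 in HF+Ex. All HF+CR libraries were below all LF+CR libraries, the highest of HF+CR only just, and the difference of −0.58 was not called (adjusted p = 0.456). The row shown, NM_007706, held 57.3% of the level summed over 4 rows of Socs2, so the split between transcripts bears on this gene more than on the others.

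Cish was 3.43, 8.46 and 1.94 RPKM in LF, 5.03, 4.88 and 19.99 in LF+CR and 40.2, 14.3 and 4.60 in LF+Ex. It was 11.01, 3.82 and 1.36 RPKM in HF, 2.39, 29.7 and 9.54 in HF+CR and 7.48, 4.95 and 2.23 in HF+Ex. The range within LF+Ex was 8.74-fold and that within HF+CR 12.5-fold, and every group overlapped with every other. No comparison of Socs2 or Cish was called.

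Bcl6, a repressor of STAT5 targets, was 17.4, 2.52 and 20.4 RPKM in LF, 4.50, 8.54 and 1.39 in LF+CR and 6.73, 2.06 and 4.99 in LF+Ex. It was 3.09, 7.51 and 10.98 RPKM in HF, 12.4, 5.42 and 9.38 in HF+CR and 3.30, 20.7 and 15.9 in HF+Ex. In each group except LF+Ex the library with the lowest Bcl6 was the one with the highest Cish. Onecut1 was 5.56, 4.40 and 5.22 RPKM in LF, 1.93, 2.98 and 10.2 in LF+CR and 31.4, 17.5 and 6.13 in LF+Ex. It was 16.3, 2.13 and 1.13 RPKM in HF, 5.26, 33.0 and 3.53 in HF+CR and 14.4, 5.70 and 4.59 in HF+Ex. All LF+Ex libraries were above all LF libraries, by 1.43 on the log2 scale, which was not called (adjusted p = 0.559).

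The spread within groups set Cish, Onecut1, Bcl6 and Socs2 apart from the receptor, the STAT5 genes and the secreted products. The median gene tested had an SD within groups of 0.19 on the log2 scale. Cish had 1.18 (percentile 99.5 of the genes tested), Onecut1 1.15 (99.4), Bcl6 1.01 (99.2) and Socs2 0.64 (97.0). Igfals had 0.41, Stat5a 0.36, Ghr 0.32 and Igf1 0.28. For these 4 variable genes the 95% intervals were wide. They ran from −0.96 to 2.68 for Cish and −2.03 to 1.52 for Onecut1 in LF+CR against LF, and both include 0.

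Cux2, known in mouse liver as a female-specific repressor of male-biased genes, had its high values in a single group. It was 7.23, 4.45 and 8.82 RPKM in LF+CR. In LF it was 0.113, 0.462 and 0.0853 RPKM, and in LF+Ex 0.0900 and 0.00616 in libraries 1 and 2 and listed at 0 in library 3. In HF it was 0.00764 and 0.00740 in libraries 1 and 3, in HF+CR 0.0119 and 0.0282 in libraries 2 and 3, and in HF+Ex 0.0143 and 0.00668 in libraries 2 and 3, each group having 1 library listed at 0. By the depth estimate 1 read of this transcript is worth 0.0047 to 0.0089 RPKM, so the values of HF, HF+CR and HF+Ex rest on a few reads at most. The LF libraries were above the HF libraries without overlap, by 0.27 on the log2(RPKM + 1) scale, which was not called (adjusted p = 0.466).

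Cux2 rose by 2.65 ± 0.18 (SE) in LF+CR against LF (adjusted p = 1.46e-06), and the group means of 6.84 ± 2.21 and 0.220 ± 0.210 RPKM (SD, n = 3) differed 31.0-fold. In HF+CR against LF+CR it was lower by 2.91 ± 0.18 (adjusted p = 3.89e-07), and in HF+CR against HF it was not called. The interaction of CR with diet was −2.64 ± 0.25 (adjusted p = 6.58e-05), so the CR difference of Cux2 was itself tested to differ between diets. With Cux2 at 0.0282 RPKM or less in HF and HF+CR, this is nearly the difference of LF+CR from LF with its sign turned. All 3 calls rest on the same 3 LF+CR libraries and are not separate results. Cux2 passed the filter on low values only through the LF+CR libraries, the group where it is high, so among the genes tested it had to differ there and these tests are not independent of the filter. With no filter on low values, the adjusted p was 3.48e-06 in LF+CR against LF, 1.07e-06 in HF+CR against LF+CR and 0.000146 in the interaction. The 3 calls were made in all 28 alternatives that tested Cux2, including those without the libraries with pancreatic transcripts and without those high in bile duct markers. Where libraries were left out, the filter was still computed over all libraries. Those alternatives therefore kept Cux2 through the same LF+CR values and are not independent support. LF+CR 2, the library with the lowest Cux2 of its group, had pancreatic markers at 5.01 RPKM in sum, the lowest of all libraries. The sum was 9.09 RPKM in LF+CR 3, which had the highest Cux2, and 1900 in LF+CR 1. In HF+CR 1 it was 370, with Cux2 listed at 0. Over the 18 libraries Cux2 had r = 0.622 with the estimated depth. The parts of pancreatic RNA and of depth in these values were not tested.

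**Figure D3:**
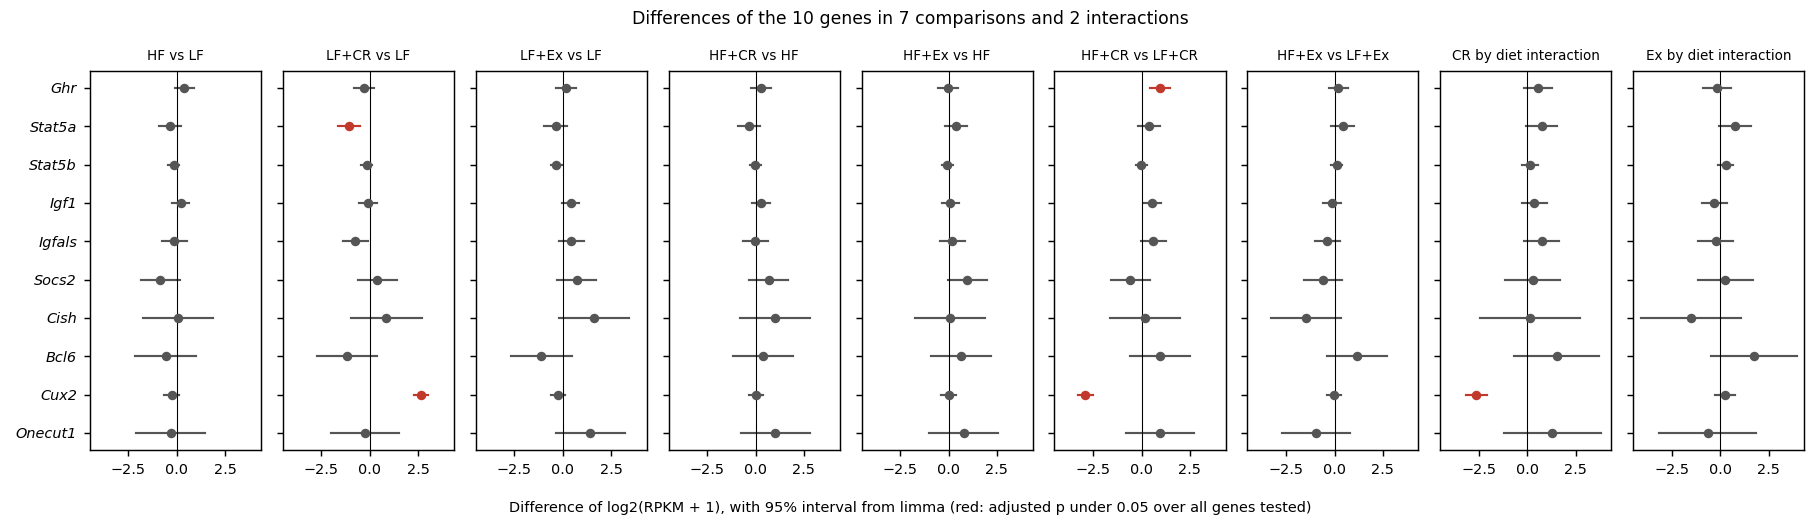
Difference of log2(RPKM + 1) with its 95% interval from limma (horizontal axes) for each gene (vertical axis) in the 7 comparisons and 2 interactions. Red marks the 5 called differences, Stat5a and Cux2 in LF+CR against LF, Ghr and Cux2 in HF+CR against LF+CR, and Cux2 in the interaction of CR with diet.

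Counted over the 10 genes, 5 of 90 differences were called, where 2511 of 93222 tests of all genes (2.69%) were. An unadjusted p under 0.05 was found for 8 of the 90, and the shares of all genes are given by comparison below. Of the 5 calls, 3 were of Cux2, which the filter kept only through LF+CR, and these 3 rest on the same LF+CR libraries. In LF+CR against LF, 2 of the 10 genes were called, where 6.5% of all genes tested were, and 3 had an unadjusted p under 0.05 (22.4% of all genes). HF+CR against LF+CR had 2 calls (9.77% of all genes) and 3 genes with an unadjusted p under 0.05 (26.3%), and the CR by diet interaction had 1 and 1 (1.02% and 11.8%). In HF against LF none was called by limma and none had an unadjusted p under 0.05, where 0.405% and 16.8% of all genes did. None of the 10 was called by limma or had an unadjusted p under 0.05 in HF+CR against HF (1.4% and 14% of all genes), in HF+Ex against HF (0% and 3.64%), in HF+Ex against LF+Ex (5.15% and 22.2%) or in the Ex by diet interaction (0% and 5.07%). In LF+Ex against LF none was called (0% of all genes) and 1, Stat5b, had an unadjusted p under 0.05 (9.11%). Groups did not overlap for 4 of the 10 genes in HF+CR against LF+CR, where 31.3% of all genes did not, for 2 in LF+CR against LF (23.3%) and in LF+Ex against LF (12.2%), and for 1 in HF against LF (18.8%) and in HF+Ex against LF+Ex (30.9%). All 10 overlapped in HF+CR against HF (18.9% did not) and in HF+Ex against HF (11%). For groups that did not overlap, the counts were near the shares of all genes. Of the 4 genes in HF+CR against LF+CR, Ghr and Socs2 overlapped once their RefSeq rows were summed. The median difference of the 10 was −0.21 in LF+CR against LF and 0.48 in HF+CR against LF+CR, and that of all genes tested was 0.00 in both.

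Levels of several of these genes went together from library to library. Correlations over the 18 libraries were computed on the log2(RPKM + 1) scale for the 36 pairs of 9 genes, leaving out Cux2, whose libraries form 2 separate clusters. By permutation, 9 pairs had a Benjamini-Hochberg adjusted p of r under 0.05. Cish and Onecut1 had the largest r, 0.802 (adjusted permutation p = 0.0018), with a rho of 0.647 (adjusted p = 0.0342). Without LF+Ex 1 and HF+CR 2, the libraries farthest from the median of Cish, r was 0.635. With each library set against its group mean, r was 0.829 (permutation p within groups 0.00257, adjusted 0.0868). In each group except LF, the library with the highest Cish was also the one with the highest Onecut1.

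Cish and Bcl6 went in opposite directions, with r = −0.617 (adjusted permutation p = 0.0343) and rho = −0.682 (adjusted p = 0.0294), and r = −0.804 without the same 2 libraries. Igf1 and Igfals, the circulating partners, had r = 0.700 (adjusted p = 0.0157), rho = 0.639 (adjusted p = 0.0342) and r = 0.587 without LF 2 and LF+CR 1. Ghr and Igf1 had r = 0.727 (adjusted p = 0.0121), rho = 0.593 (adjusted p = 0.0550) and r = 0.535 without LF+CR 1 and HF+CR 1. Onecut1 was in 4 of the other 5 pairs. With Igfals it had r = 0.687 (adjusted permutation p = 0.0161) and rho = 0.763 (0.0137), and with Igf1 r = 0.660 (0.0215) and rho = 0.633 (0.0342). With Stat5b it had r = −0.648 (0.0220) and rho = −0.690 (0.0294), and with Socs2 r = 0.584 (0.0414) and rho = 0.451 (0.151). Socs2 and Cish had r = 0.598 (0.0387) and rho = 0.536 (0.109). Without the 2 libraries farthest from the median of the other gene, r with Onecut1 was 0.647 for Igfals, 0.674 for Igf1, −0.570 for Stat5b and 0.371 for Socs2, and for Socs2 and Cish it was 0.498, so the relation of Socs2 and Onecut1 rested on HF 2 and HF 3. None of the 36 pairs had an adjusted p under 0.05 once group means were removed, the smallest being 0.0868. The within-group signs were those of the pooled values for the 4 pairs described first, at 0.829, −0.601, 0.734 and 0.629.

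**Figure D4:**
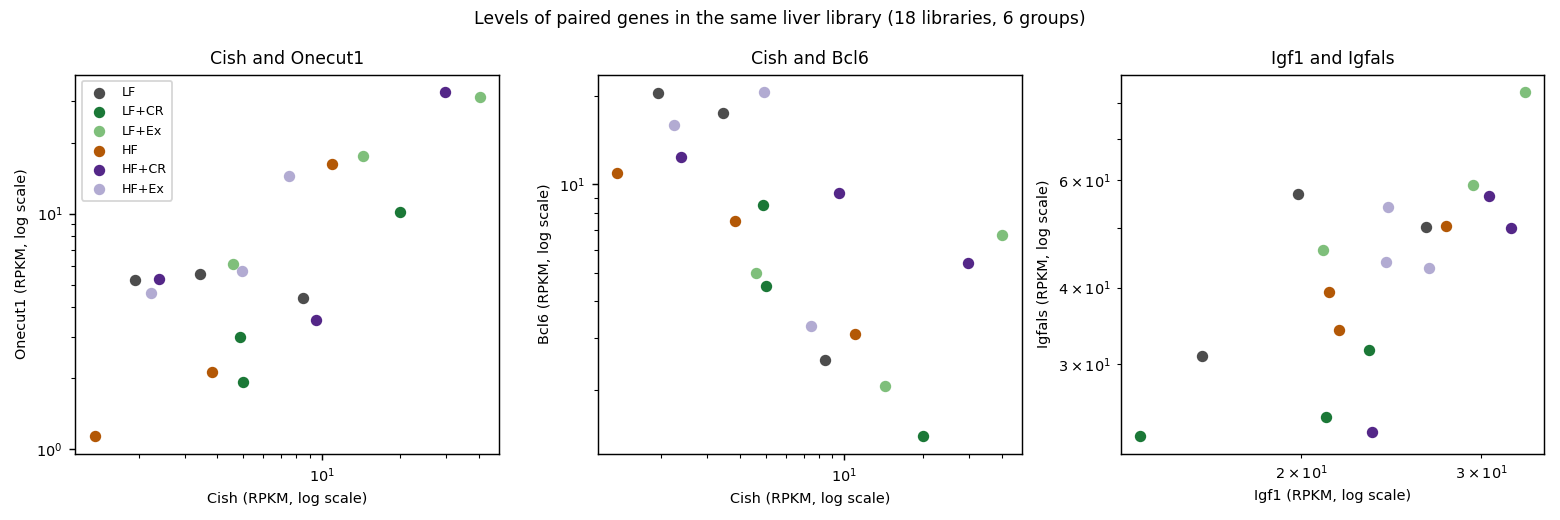
RPKM of paired genes in the same library, on log axes, with points coloured by group. Libraries high in Cish were high in Onecut1 (r = 0.802) and low in Bcl6 (r = −0.617), and libraries high in Igf1 were high in Igfals (r = 0.700), all on the log2(RPKM + 1) scale over 18 libraries.

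Other genes of the pathway were taken from lists. Of 24 genes of growth hormone receptor signalling, such as Jak2, the phosphatases and the adaptors, 19 were tested, of 14 genes of the IGF system 7, and of 29 hepatic transcription factors 28. Over the 9 comparisons these 54 genes were called in 12 of 486 tests (2.47%), and all genes tested in 2511 of 93222 (2.69%), so the share of calls was near that of all genes. Jak2 itself ran from 0.51 to 3.98 RPKM, apart from HF+CR 2, where it is listed at 0, and was not called. Igfbp2, a binding protein of the IGFs, was called lower in HF+Ex against LF+Ex (−1.59, adjusted p = 0.0432), at 110 to 146 RPKM against 211 to 546. Igfbp2 lost its call without any 1 of the LF+CR or HF+Ex libraries, LF+Ex 1, LF+Ex 2 or HF 3 (adjusted p up to 0.170). Without the libraries with pancreatic transcripts its adjusted p was 0.201.

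Among the hepatic factors, Cux1, a homologue of Cux2, moved against it. Cux1 was 7.59, 6.41 and 6.75 RPKM in LF and 3.98, 4.11 and 4.85 in LF+CR, and it fell by 0.58 on the log2 scale (adjusted p = 0.00395). Cux1 was called higher in HF+CR against LF+CR by 0.41 (adjusted p = 0.0176), and that call was lost without LF+CR 1, LF+CR 2 or HF+CR 1 (adjusted p of 0.0856, 0.0696 and 0.0954). In LF+CR against LF, Nr1i3, the receptor CAR, was called lower as well (−0.67, adjusted p = 0.0379), and it was called lower in HF+CR against HF too, at 45.7 ± 11 against 90.8 ± 8.52 RPKM (SD, n = 3; adjusted p = 0.0173 with limma). Called lower in HF+CR against LF+CR were Tox (−1.41, adjusted p = 0.00571), Hnf4a (−0.52, adjusted p = 0.0149) and Nr1i2, the receptor PXR (−0.68, adjusted p = 0.0348), and Hnf4a was called lower in HF+Ex against LF+Ex (−0.53, adjusted p = 0.0257). All 12 calls were lost under at least 1 alternative, and 10 were lost when 1 particular library was left out. The exceptions to the latter were Tox in HF+CR against LF+CR and Cux1 in LF+CR against LF. Nr1i3 was lost without any LF library, LF+CR 1 or LF+CR 2, and under HF without HF 1 or HF 2. Hnf4a was lost without LF+CR 2, HF+CR 1 or HF+CR 2 in the CR comparison and without LF+Ex 1, LF+Ex 2, HF+Ex 1 or HF+Ex 3 in the Ex comparison, and Nr1i2 without LF+CR 1, LF+CR 3, HF+CR 1 or HF+CR 2. Without the 3 libraries with pancreatic transcripts some of these calls were lost as well. Among them in HF+CR against LF+CR were Tox (−1.42, adjusted p = 0.0629), Hnf4a (−0.53, 0.139), Nr1i2 (−0.51, 0.306) and Cux1 (0.30, 0.300). Nr1i3 in LF+CR against LF (−0.56, 0.161) and Hnf4a in HF+Ex against LF+Ex (−0.46, 0.162) were also lost. The differences of Tox and Hnf4a in HF+CR against LF+CR stayed near those with all libraries, and the others were smaller. In that setting 131 of all genes tested were called in HF+CR against LF+CR, against 1012 with all libraries. The part of pancreatic RNA in these losses was not tested.

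Genes known to depend on growth hormone and STAT5 in a sex-biased way were called in several comparisons. Of 30 male-biased and 32 female-biased genes listed from general knowledge, 28 and 23 were tested. The lists were chosen with earlier results of these data known, so the counts describe these genes and are not independent support. In LF+CR against LF, 14 male-biased genes were called lower and 0 higher (median of those tested −1.48), and 13 female-biased genes higher and 0 lower (median 1.23). Of all genes tested, 6.5% were called in that comparison. Mup20, a major urinary protein, was 4563, 10439 and 9572 RPKM in LF against 151, 498 and 242 in LF+CR, a difference of −4.86 (adjusted p = 2.54e-05). C8a, of the complement system, differed by −3.88 (adjusted p = 7.63e-06), Cyp4a12a by −4.68 (0.000242) and the fatty acid elongase Elovl3 by −4.56 (0.00151). Cyp2b13 differed by 4.48 (adjusted p = 2.54e-05), Slc22a26 by 2.45 (8.63e-05) and Fmo2 by 2.11 (0.00155). Mup, Cyp2b and Cyp4a genes have near-identical copies, so the assignment of reads among them is uncertain. Leaving out 1 library lowered the count of male-biased calls to as few as 7 (without LF+CR 1) and 9 (without LF 1 or LF 3), and that of female-biased calls to 7 (without LF 1) or 8 (without LF 2 or LF+CR 2). Without the pancreatic libraries the counts were 8 and 6. Of all genes tested, 215 were called without the pancreatic libraries, against 673 with all libraries. They were 250 without LF+CR 1, 268 without LF 1 and 860 without LF 3. Of the markers of liver cell types, 4 of 11 hepatocyte markers and 1 of 9 endothelial markers were called higher in LF+CR against LF, and their part in these counts was not tested.

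Against LF+CR, HF+CR had 23 male-biased genes called higher and 18 female-biased genes called lower, with none the other way (medians 2.996 and −2.32). Of all genes tested, 9.77% were called there. In the CR by diet interaction 13 male-biased genes were called positive and 10 female-biased genes negative, where 1.02% of all genes tested were called. The medians of the lists were 3.02 and −2.45. For the called genes the CR difference was tested to differ between diets. Serpina1e (8.14, adjusted p = 0.000167), C8a (4.56, 7.66e-07), C6 (3.50, 6.86e-05) and Mup20 (4.10, 7.73e-05) were called higher in HF+CR against LF+CR. Without the pancreatic libraries the male-biased count was 10 in HF+CR against LF+CR and 8 in the interaction. Without HF+CR 3 it was 20 in the interaction. Calls over all genes fell from 1012 to 131 in HF+CR against LF+CR without the pancreatic libraries. In the interaction they were 106 with all libraries, 37 without the pancreatic libraries and 211 without HF+CR 3. Of the 11 hepatocyte markers, 2 were called higher and 3 lower in HF+CR against LF+CR, and Hnf4a, named above, is among those called lower. In HF+CR against HF, 1.4% of all genes tested were called. HF+CR had 5 male-biased genes called higher, such as Selenbp2 (3.06, adjusted p = 0.00394), and 6 female-biased genes lower, such as Cyp2b13 (−3.43, adjusted p = 0.00228). Those 2 counts changed when a single library was left out, the male-biased one to 1 (without HF 2, HF 3, HF+CR 1 or HF+CR 2) or 10 (without HF+CR 3) and the female-biased one to 2 (without HF 2 or HF+CR 1) or 3 (without HF 3). Calls over all genes in HF+CR against HF were 145 with all libraries, 12 without HF 2 and 296 without HF+CR 3. In that comparison 2 hepatocyte markers were called higher. The part of these markers in the counts was not tested. The comparisons share groups, so their values are given side by side only.

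In HF+Ex against LF+Ex, 5.15% of all genes tested were called. There, 9 male-biased genes were called lower, such as Srd5a1 (−1.31, adjusted p = 0.004), and 7 female-biased genes higher, such as Cyp2b13 (3.40, adjusted p = 0.00194). Without LF+Ex 1 these counts were 2 and 4, without LF+Ex 2 they were 4 and 4, without HF+Ex 1 the male-biased count was 4, and without HF+Ex 2 and HF+Ex 3 the counts were 3 and 4 and 2 and 4. Without the pancreatic libraries both were 2. Calls over all genes were 33 without the pancreatic libraries and 58 without LF+Ex 1, against 533 with all libraries. In the same comparison 5 of 11 hepatocyte markers were called lower and 1 higher (median −0.51, against 0.08 for all genes tested). The one called higher was Alb, listed at 0 in the LF+Ex libraries and at 30803 to 33218 RPKM in HF+Ex, and what lies behind its zeros was not tested. Hnf4a, named above, is among the markers called lower. Also, 1 macrophage, 1 stellate cell and 1 lymphocyte marker were called higher, and the part of all these markers in the result was not tested. In HF against LF, 2 male-biased genes, Srd5a1 and Cyp4a12b, were called lower and 1 female-biased gene, Cyp2b13, higher (3.06, adjusted p = 0.0140). Of all genes tested, 42 (0.405%) were called in HF against LF. With 1 library left out, these calls ran from 0 (without LF 1) to 91 (without LF+Ex 3). The male-biased calls in HF against LF were not stable, with 0 called without LF 1, LF 2, LF+CR 2, HF 2, HF 3 or HF+Ex 3 and 1 or 2 without any other single library, and the female-biased call was lost without LF 1 and became 2 without HF 1. No gene of either list was called in LF+Ex against LF, HF+Ex against HF or the Ex by diet interaction, although the medians in LF+Ex against LF were 1.10 for the male-biased and −0.50 for the female-biased genes. Of all genes tested, 0% were called in each of these comparisons. In LF+Ex against LF, 2 female-biased genes were called lower without LF+Ex 3 and 1 with a pseudocount of 0.1.

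**Figure D5:**
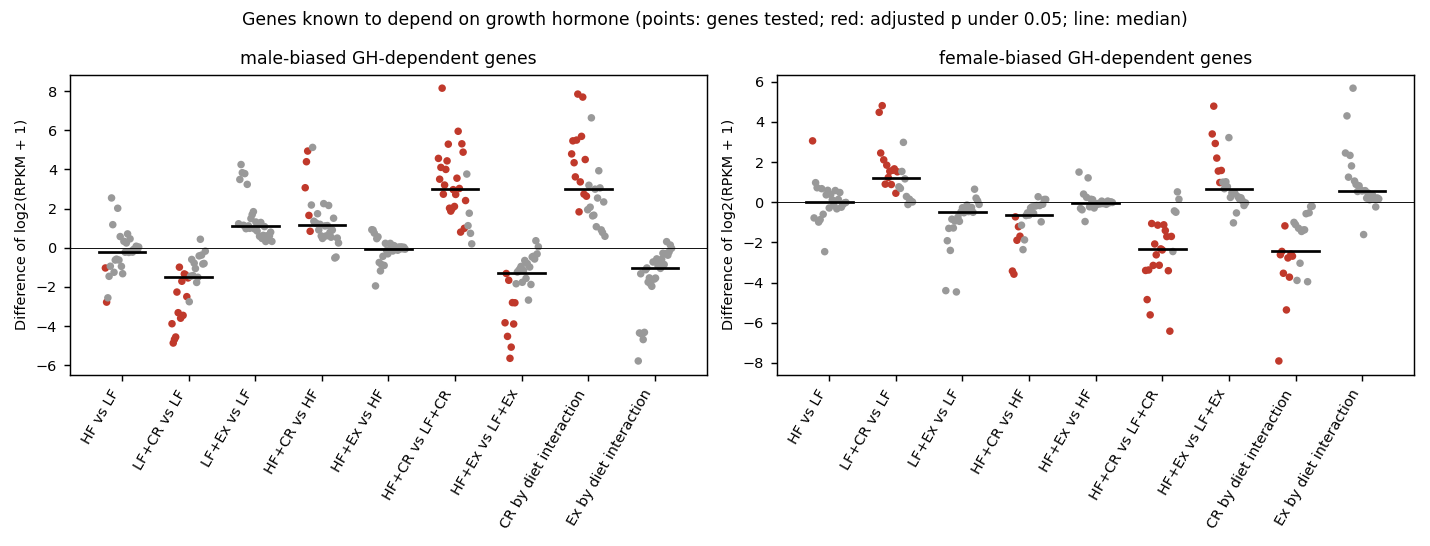
Difference of log2(RPKM + 1) (vertical axes) of each tested gene of both sex-biased lists in every comparison (horizontal axes), with called genes in red and a line at the median. In LF+CR against LF the medians are −1.48 for male-biased and 1.23 for female-biased genes, and in HF+CR against LF+CR they are 2.996 and −2.32.

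The genes whose levels over the 18 libraries were most like those of the 3 genes with a call are given by Pearson's r, as a description. For Cux2 they included Sec31b (r = 0.949), the transporter gene Slc22a26 (0.949) and Pnpla3 (0.944), which encodes a lipase of lipid droplets. Of these, Slc22a26 is on the list of female-biased genes. For Stat5a they were Slc4a4 (0.887), a bicarbonate transporter gene, Serinc2 (0.833), Ccdc166 (0.820) and Nacc2 (0.818). For Ghr they were Pms1 (0.934), Cyp2j5 (0.926), Arhgap26 (0.917) and Hectd2os (0.915). An r with Cux2 rests on the contrast of 3 libraries with 15.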

How the data were processed

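PolyA RNA of 18 mouse liver libraries was analysed, 3 for each of 6 groups taken from the sample titles. The deposited unit is RPKM for each RefSeq transcript, computed by the authors with TopHat 1.4.1 and Cufflinks 1.3.0 on mm10, per the submitters' processing notes. The annotation version and the read total behind the scaling are not given in the sources used here. The per-sample and series-wide values were equal (550476 values).

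Of 30582 rows, 29438 got a symbol from the RefSeq table of GRCm38.p6, 179 more from GENCODE, and 965 had none. Gene positions are GRCm38.p6 spans. For each gene the row with the highest mean was used, and 3992 of 24040 genes had more than 1 row. Cufflinks divides reads among the transcripts of a gene, so a single row can move when the split moves.

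Values were analysed as log2(RPKM + 1), which understates fold changes of low genes, with limma 3.58.1 in R 4.3.3, as 1 model of 6 group means with 12 residual degrees of freedom and a variance trend. Tests were two-sided, with Benjamini-Hochberg adjustment over the 10358 genes that reached 1 RPKM in 3 or more libraries, and a gene was called at an adjusted p under 0.05. All adjusted p-values of differences are from limma. No count model was used, since the values are not counts. Correlations used 100000 permutations in Python 3.11.15. The fit was tested on simulated data.

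The 10 genes, the gene lists and the alternatives were chosen with earlier results of these data known. From each list called genes of the signalling, IGF and transcription factor lists were named, and up to 4 with the smallest adjusted p of the sex-biased lists. A few of the genes so named are not reported here, and the list counts include them. The 29 alternatives included a pseudocount of 0.1, other filters and scalings, summed rows, a replicate block and leaving out each library. Where libraries were left out, the filter on low values was still computed over all 18 libraries.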

Additional observations from a re-analysis of the deposited data

Results flagged for a closer look

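The difference of Cux2 between CR and diet alone was not the same under both diets. In the interaction term of limma it was −2.64 on the log2(RPKM + 1) scale (adjusted p = 6.58e-05), with Cux2 at 4.45 to 8.82 RPKM in the 3 LF+CR libraries and at most 0.0282 RPKM in the 3 HF+CR libraries. Cux2 passed the filter on low values only through LF+CR, the group where it is high, so this test is not independent of the filter, and with no filter the adjusted p was 0.000146. This term and the Cux2 calls in LF+CR against LF and HF+CR against LF+CR rest on the same 3 LF+CR libraries and are not separate results. Groups of 3 libraries were too small to test for single libraries that stand apart.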

How the results depend on the processing

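Of the 90 differences of the 10 genes, the 5 called ones kept their sign in all alternatives, 81 were called in none, 4 uncalled ones were called in at least 1, and 27 uncalled ones changed sign in at least 1. In LF+CR against LF, where 2 genes were called, 1 was called with no filter on low values, 1 with only the groups compared and 1 without the libraries with pancreatic transcripts, 0 with a mean of at least 5 RPKM, which left Stat5a and Cux2 out of the genes tested, and 1 to 2 when each library was left out. In HF+CR against LF+CR, where 2 were called, 1 was called with a mean of at least 5 RPKM, with only the groups compared, with summed rows and without the pancreatic libraries, and 1 to 3 when each library was left out (3 without HF+CR 3). Without the pancreatic libraries, calls over all genes fell from 673 to 215 in LF+CR against LF and from 1012 to 131 in HF+CR against LF+CR. In the CR by diet interaction, where Cux2 alone was called, 0 were called with a mean of at least 5 RPKM and 3, Ghr and Igfals being added, without the bile duct libraries. Calls over all genes in the interaction were then 270, against 106 with all libraries. The libraries left out, LF 2 and HF+CR 3, had the lowest Ghr and the lowest Igfals of their groups, so this had to enlarge both interactions. In the other 6 comparisons 0 were called in every alternative. The difference of Igf1 in LF+CR against LF ran from −0.26 to 0.12 when each library was left out, turning positive at 0.09 without LF 3 and at 0.12 without LF+CR 1, which is also its value of 0.119 without the pancreatic libraries. With only the groups compared, the adjusted p of Stat5a was 0.0578 and that of Ghr 0.104. Apart from the settings whose construction leaves fewer genes or libraries, the cause of these changes was not tested.

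Replicate numbers recur in all groups. Deviations from the group means of libraries with the same number had correlations of −0.49 to 0.31 with a median of 0.00, and 10 of 45 were over 0.1. For libraries with different numbers they ran from −0.39 to 0.44, and 20 of 90 were over 0.1. These values show no pairing by number, but with 3 libraries a group they cannot exclude it. With the number as a replicate block, 2 genes were called in LF+CR against LF, 2 in HF+CR against LF+CR and 1 in the CR by diet interaction, with no change of a call among the 10 genes. Among the pathway genes the block ended the calls of Nr1i3 in LF+CR against LF (adjusted p = 0.0585), Igfbp2 in HF+Ex against LF+Ex (0.0639) and Nr1i2 in HF+CR against LF+CR (0.0513). The number of male-biased genes called with the block was 3 in HF+CR against HF and 0 in HF against LF. Other settings moved the counts of the sex-biased genes by more than 1.5 times. The 13 female-biased calls in LF+CR against LF were 8 with a pseudocount of 0.1 and 5 with the filter at a mean of 5 RPKM, while the 18 in HF+CR against LF+CR were 10 with that filter. With only the groups compared, male-biased calls were 15 in HF+CR against LF+CR, 0 in HF+CR against HF and 20 in HF+Ex against LF+Ex. Without the bile duct libraries they were 12 in HF+CR against HF, 15 in HF+Ex against LF+Ex and 21 in the CR by diet interaction. Calls over all genes were then 390, 1114 and 270, against 145, 533 and 106 with all libraries. With only the groups compared, calls over all genes were 380 in HF+CR against LF+CR, 27 in HF+CR against HF and 872 in HF+Ex against LF+Ex. Where a list had calls, no alternative called a gene of it in the other direction, except 1 female-biased gene in HF against LF with quantile normalization.

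With 3 libraries a group and no counts, counting error could not be given, and values of Cux2 outside LF+CR and LF rest on few reads.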
